A study of Mus musculus with 32 samples.

Results

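The genes described here are 7 nuclear receptors of lipid sensing, taken by gene symbol from the 20560 genes of the deposited expression table and followed over all 32 of its libraries. They are the peroxisome proliferator-activated receptors Pparg, Ppara and Ppard, the retinoid X receptors Rxra and Rxrb, and the liver X receptors Nr1h2 (LXR beta) and Nr1h3 (LXR alpha). The cells were 3T3-L1, a mouse preadipocyte line that turns into adipocyte-like cells on hormone treatment. They carried a short hairpin RNA (shRNA) against Zbtb9, a zinc finger gene, or a scramble shRNA (control). Knockdown was made with 2 shRNAs, called shRNA 1 and shRNA 2, with 2 libraries each per day, against 4 control libraries per day, at days 0, 3, 7 and 11.

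All groups were otherwise treated alike. They grew in medium with 10% serum and were induced at day 0, 2 days after confluence, with insulin at 167 nM, dexamethasone at 1 µM and isobutylmethylxanthine at 0.5 mM. From day 3 the medium held insulin as its only additive, and from day 7 it held none. The labels call the cells preadipocytes at day 0, premature adipocytes at days 3 and 7 and mature adipocytes at day 11. Whether an shRNA line was a clone or a pool is not given in the sources used here. Libraries are labelled as biological replicates, with no word on separate cultures, so the p-values below measure the spread between these samples.

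As background, PPARs and LXRs bind DNA as heterodimers with an RXR, on direct repeats of a hexamer close to AGGTCA. PPAR gamma is bound by fatty acid derivatives and by thiazolidinedione drugs, and is required for fat cell formation. PPAR alpha and PPAR delta drive fatty acid oxidation, the former mainly in liver and the latter in many tissues. LXRs are bound by oxysterols and switch on cholesterol export and fatty acid synthesis. Without ligand, corepressor complexes sit on the dimer, and ligand exchanges them for coactivators.

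Facts of the whole series that touch these genes are as follows. Libraries held 22280321 to 31073716 reads in genes, as rebuilt from the deposited values. At day 11 the depth of the arms did not overlap, with 26486034 to 31073716 reads in control and 22839423 to 25511818 in knockdown. The targeted gene, Zbtb9, had few reads, with 14.2 ± 0.594, 10.3 ± 2.98, 16.8 ± 4.15 and 15.5 ± 4.02 normalized reads in control (SD, n = 4) at days 0, 3, 7 and 11. Knockdown libraries had 8.76 ± 2.83, 5.20 ± 3.96, 7.16 ± 2.03 and 8.46 ± 7.65 (SD, n = 4). The arms did not overlap at days 0 and 7. In limma, the difference passed the threshold at day 7 (adjusted p = 0.0288) and missed it at days 0 and 11 (adjusted p = 0.271 and 0.173). At day 3 Zbtb9 did not pass the filter on low values. In GENCODE M21, 84.4% of the 3482 exon bases of Zbtb9 are shared with Ggnbp1 on the same strand and 8.39% with another gene on the opposite strand, so its reads are an uncertain check of the labels. The library labelled day 11 shRNA 1 replicate 2 had 17 Zbtb9 reads, inside the control range of 13 to 22, and at day 3 shRNA 1 replicate 2 and shRNA 2 replicate 1 had 7 and 9, inside the control range of 6 to 12. The receptors and gene lists of these days are also given without these libraries, called doubted below. At day 3 this left 1 library of each shRNA, and called 9.63% of all genes higher and 7.72% lower.

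The labelled cell state was checked against marker genes. The summed normalized reads of 9 adipocyte markers ran from 407 to 462 in control libraries at day 0, 7928 to 9720 at day 3, 25014 to 28260 at day 7 and 12956 to 16586 at day 11. In knockdown libraries they ran from 301 to 423, 14339 to 19290, 78776 to 114852 and 48440 to 62649. The sum was lower at day 11 than at day 7 in both arms, and much of it was Fabp4, which averaged 15506 normalized reads in control at day 7 and 4687 at day 11. In control 6 of the 8 markers tested fell between those days and 2, Adipoq and Cfd, rose, where 26.1% of all genes fell and 28.9% rose. Adipoq averaged 8341 and 9751 normalized reads at days 7 and 11 with shRNA 1, and 5523 and 12367 with shRNA 2. Leptin (Lep), a defining marker, had 3 reads or fewer in all control libraries at days 0, 3 and 11. The 8 preadipocyte and fibroblast markers summed to 299288 to 342423 in knockdown and 364125 to 379721 in control at day 0, and to 203428 to 234716 and 259280 to 284507 at day 7, with no overlap on either day. The arms overlapped at day 3 (137555 to 179418 and 144888 to 162264) and at day 11 (233546 to 323463 and 306401 to 351396). Of 7 tested, 1, 2, 6 and 5 were called lower on days 0, 3, 7 and 11, where 2.44%, 12.1%, 22.6% and 16.2% of all genes were, and 1 was higher at day 3. Of other cell types, the leukocyte marker Ptprc and the epithelial marker Epcam had 3 reads or fewer in every library. The 5 measured macrophage markers summed to 24.3 to 647. At day 11 they summed to 313 to 647 in knockdown and 209 to 308 in control, with no overlap, and Cd68 was called higher in knockdown at days 7 and 11 and Lyz2 lower at day 7. Of the others, the 4 endothelial markers summed to 5.29 to 48.7, the 4 epithelial ones to 0 to 123 and the 2 measured muscle ones to 41.3 to 668. At day 7 the epithelial sum was 70.3 to 123 in knockdown against 6.93 to 18.3 in control. The muscle sum was 544 to 668 against 296 to 388. On that day Epcam, Cdh1 and Krt5 had 3 reads or fewer in every library, as did Acta1 of the muscle markers. In knockdown these sums were thus nearly all Krt18 and Des, 1 gene of each list. The part of these genes in the results was not tested.

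Values per library below are the deposited log2 values, in which genes with few reads are drawn towards their own mean. A difference is the knockdown mean minus the control mean on that scale, with its standard error (SE). Folds are ratios of mean normalized reads, rebuilt from the log2 values. A gene is called at a limma adjusted p under 0.05, adjusted over all genes tested.

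Control cells were first followed alone, to see what differentiation did to the receptors. Pparg and Rxra rose about alike by day 3, and Nr1h3 rose most between days 3 and 7. All of Pparg, Ppard, Rxra and Nr1h3 fell between days 7 and 11, the days without added insulin. From day 0 to day 3, 5 of the 7 genes rose and 2 fell, where 38.3% of all genes tested rose and 38.2% fell. From day 3 to day 7, 5 rose and 1 fell (all genes 37.6% and 36.6%). From day 7 to day 11, 1 rose and 4 fell (28.9% and 26.1%). Against day 0, 6 of 7 were higher at day 11 and none was lower (33.0% and 31.6%). The median change of the 7 was 0.54, 0.32, -0.31 and 0.43 in these comparisons, beside 0.00, 0.01, 0.01 and 0.01 for all genes tested. With libraries rescaled to equal totals, the median of all genes from day 0 to day 3 became -0.12 in place of 0.00. Calls were then 38.6% upward, in place of 50.1%. Under that scaling the 7 calls and their directions from day 0 to day 3 held, with Rxrb at 0.24 and Nr1h2 at -0.31 the nearest to the shift.

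Pparg (ENSMUSG00000000440, chromosome 6, 115360951 to 115490399, plus strand, GRCm38) encodes PPAR gamma, the receptor that fat cell formation requires. It has several start sites, 60922 bases apart from the first to the last of those in RefSeq. Its promoters are shown because Pparg differed most between the arms. Each is 300 bases long in GRCm38.p6, from 250 before to 50 after a RefSeq start, on the plus strand and 5′ to 3′, and capitals mark the motifs searched. These were the receptor hexamer AGGTCA and the C/EBP core TTGCNNAA, on both strands.
Pparg upstream start, chr6:115360894-115361193: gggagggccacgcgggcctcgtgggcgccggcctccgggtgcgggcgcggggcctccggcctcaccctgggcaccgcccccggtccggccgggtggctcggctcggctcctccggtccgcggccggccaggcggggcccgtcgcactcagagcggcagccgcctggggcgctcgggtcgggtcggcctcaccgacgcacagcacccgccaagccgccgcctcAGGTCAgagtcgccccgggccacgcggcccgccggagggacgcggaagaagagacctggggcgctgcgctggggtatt
Pparg-203 start, chr6:115362099-115362398: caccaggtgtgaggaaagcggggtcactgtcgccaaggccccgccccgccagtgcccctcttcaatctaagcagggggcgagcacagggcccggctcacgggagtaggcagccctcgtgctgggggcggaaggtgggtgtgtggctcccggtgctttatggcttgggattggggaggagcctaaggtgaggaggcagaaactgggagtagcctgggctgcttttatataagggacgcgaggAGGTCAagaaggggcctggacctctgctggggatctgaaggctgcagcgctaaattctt
Pparg-201 start, chr6:115421816-115422115: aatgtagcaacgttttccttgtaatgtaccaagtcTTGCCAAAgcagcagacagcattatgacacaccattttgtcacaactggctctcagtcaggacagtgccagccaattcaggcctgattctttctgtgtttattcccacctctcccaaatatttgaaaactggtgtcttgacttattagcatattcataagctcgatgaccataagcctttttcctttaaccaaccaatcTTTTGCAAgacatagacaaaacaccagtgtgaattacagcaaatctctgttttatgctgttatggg
The upper pair hold 1 hexamer each, with a GC content of 80.3% and 62.7%. The last, the start of the Pparg-201 transcript, has a GC content of 40.3% and holds 2 matches to the C/EBP core, 1 on each strand. The median GC content of all 32851 promoters of the table was 52.7%. The hexamer was found in 16.3% of all promoters and in 3 of the 12 of the 7 receptors, and the C/EBP core in 10.8% and in 1 of 12. The remaining promoter with the hexamer is that of the Rxra-202 transcript, shown because it holds 2, 1 on each strand.
Rxra-202 start, chr2:27709042-27709341, plus strand: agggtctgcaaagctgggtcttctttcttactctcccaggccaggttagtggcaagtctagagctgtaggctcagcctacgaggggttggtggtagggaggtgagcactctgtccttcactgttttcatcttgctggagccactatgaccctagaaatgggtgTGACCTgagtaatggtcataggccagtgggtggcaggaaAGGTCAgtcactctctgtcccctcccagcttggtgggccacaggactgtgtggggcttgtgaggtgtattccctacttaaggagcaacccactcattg
Direct repeats of the hexamer 1 base apart, the spacing of PPAR sites, were in 0.0396% of all promoters, and those 4 bases apart, the spacing of LXR sites, in 0.0152%. None of the 12 promoters held either. The deposited values are per gene, so they do not say which start was used.

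In the 4 control libraries Pparg was at 9.67, 9.75, 9.70 and 9.60 at day 0, and at 11.59, 11.59, 11.62 and 11.54 at day 3. At day 7 it was at 11.93, 11.86, 11.94 and 11.89, and at day 11 at 11.27, 11.34, 11.26 and 11.45. No 2 of these groups overlapped, so control Pparg rose to day 7 and then came down to a level still far above day 0. It rose by 1.90 (SE 0.04, 3.96-fold, limma adjusted p = 3.35e-29) to day 3 and by 0.32 (limma adjusted p = 3.62e-08) to day 7. It then fell by 0.58 (limma adjusted p = 8.64e-14) to day 11.

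In knockdown Pparg started level with control and then ran ahead. At day 0 it was at 9.72 and 9.65 with shRNA 1 and at 9.62 and 9.57 with shRNA 2. At day 3 it was at 11.85 and 11.89, and at 12 and 12.08. At day 7 it was at 13.04 and 13.07, and at 13.06 and 13.15. All 4 libraries lay above all 4 controls at days 3 and 7, and the same held at day 11, with 12.41 and 12.35, and 12.57 and 12.60. The difference was -0.04 at day 0 (SE 0.06, limma adjusted p = 0.705) and 0.37 at day 3 (SE 0.05, 1.30-fold, limma adjusted p = 0.000149), or 0.38 (limma adjusted p = 0.00174) without the doubted day 3 libraries. It was 1.17 at day 7 (SE 0.05, 2.32-fold, limma adjusted p = 8.48e-11) and 1.15 at day 11 (SE 0.07, 2.29-fold, limma adjusted p = 5.84e-07). Without the day 11 library that overlapped control in Zbtb9, it was 1.20. Ordered by mean, knockdown day 7 was highest, then knockdown day 11. Knockdown day 3 and control day 7 came next and overlapped each other, so Pparg in knockdown at day 3 had reached the range of control at day 7. Adipocyte markers moved with it: at days 3, 7 and 11, 7 of 7, 7 of 8 and 7 of 7 tested were higher in knockdown (14.6%, 24.9% and 16.8% of all genes), and their part in the result was not tested. In bulk RNA, fewer cells of a type and less RNA per cell cannot be told apart.

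Ppard (ENSMUSG00000002250, chromosome 17, 28232700 to 28301474, plus strand), the broadly expressed PPAR delta, showed a smaller version of the course in control. It was at 10.91 to 10.98 at day 0, 11.44 to 11.53 at day 3, 11.70 to 11.78 at day 7 and 11.38 to 11.51 at day 11. It rose by 0.54 to day 3 (SE 0.04, 1.47-fold, limma adjusted p = 5.43e-15) and by 0.26 to day 7, and fell by 0.31 to day 11. In knockdown it was at 12.04, 12.01, 12.02 and 12.13 at day 7 (shRNA 1, then shRNA 2) and at 11.85, 11.74, 11.83 and 11.93 at day 11. All of these lay above the controls of their day. The difference was 0.30 at day 7 (SE 0.05, 1.24-fold, limma adjusted p = 0.000111) and 0.40 at day 11 (SE 0.05, 1.33-fold, limma adjusted p = 0.000224), or 0.43 (limma adjusted p = 6.29e-05) without the doubted day 11 library. At day 3 the arms overlapped, with a difference of -0.10 (SE 0.05, limma adjusted p = 0.173), or -0.11 (limma adjusted p = 0.244) without the doubted libraries, and at day 0 it was -0.01 (limma adjusted p = 0.915).

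Ppara (ENSMUSG00000022383, chromosome 15, 85734983 to 85802819, plus strand), the PPAR of liver fat oxidation, was close to the floor of detection throughout. Control libraries had 21, 15, 12 and 12 reads at day 0, 3, 2, 0 and 0 at day 3, 27, 24, 10 and 5 at day 7 and 16, 12, 10 and 6 at day 11. Knockdown libraries had 17, 15, 16 and 22, then 5, 3, 6 and 4, then 17, 24, 17 and 24, and last 18, 16, 15 and 10. Day 3 was the lowest day in both arms, with all 4 controls at 3 reads or fewer, and no fold is given against it. In control the log2 value fell by 0.54 to day 3 (SE 0.14, limma adjusted p = 0.000650) and rose by 0.61 to day 7 (limma adjusted p = 0.000171). Over the alternative fits these changes ran from -3.41 to -0.49 and from 0.5 to 3.52, so their size is uncertain. The differences of 0.08, 0.18 and 0.22 between the arms at days 0, 7 and 11 did not pass the test (limma adjusted p = 0.702, 0.385 and 0.185), and at day 3 Ppara was under the filter. The day 7 difference ran from -0.11 to 0.55 over the alternative fits, so its sign is not settled. Without the doubted library the day 11 difference was 0.19 (limma adjusted p = 0.306). Its depth was too low to show a small difference.

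**Figure D1:**
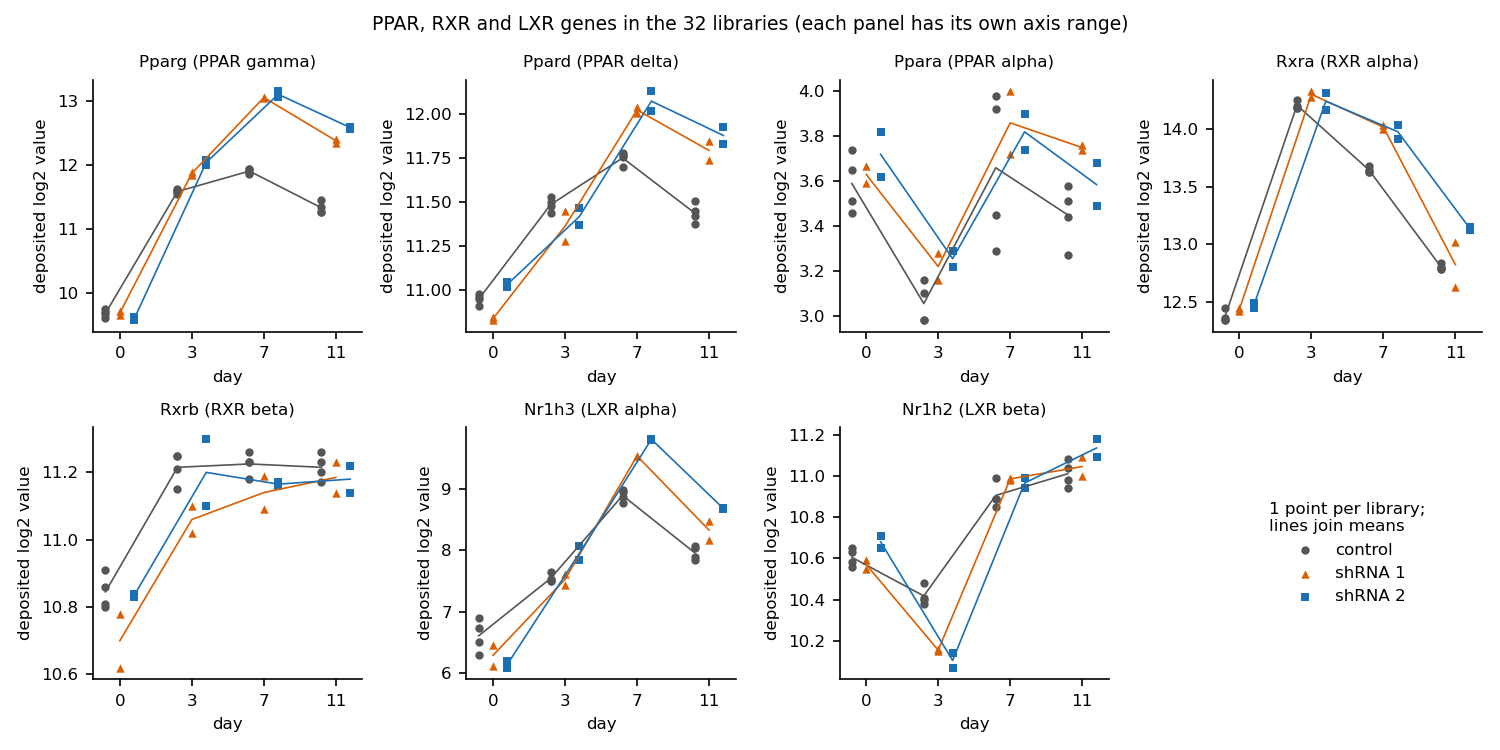
Deposited log2 value of each receptor gene (vertical axis) in each of the 32 libraries by day (horizontal axis), with circles for control, triangles for shRNA 1, squares for shRNA 2 and lines joining their means; each panel has its own axis range. Pparg in knockdown lies between 13.04 and 13.15 at day 7, above controls between 11.86 and 11.94, while Rxrb overlaps between the arms on each day.

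Rxra (ENSMUSG00000015846, chromosome 2, 27676440 to 27762957, plus strand) encodes RXR alpha, the usual partner of PPAR gamma. In control it was at 12.36, 12.45, 12.34 and 12.34 at day 0 and at 14.19, 14.26, 14.19 and 14.20 at day 3. It then came down to 13.63 to 13.68 at day 7 and 12.79 to 12.84 at day 11, so its peak came earlier than that of Pparg. It rose by 1.83 to day 3 (SE 0.03, 3.71-fold, limma adjusted p = 6.44e-32), fell by 0.56 to day 7 (limma adjusted p = 7.78e-17) and fell by 0.85 to day 11 (limma adjusted p = 2.30e-21). In knockdown it was at 14.04, 14.00, 13.92 and 14.04 at day 7, all above control, a difference of 0.35 (SE 0.05, 1.29-fold, limma adjusted p = 1.98e-05). Differences at days 0 and 3 were 0.08 and 0.07 (limma adjusted p = 0.314 and 0.292), the latter 0.09 (limma adjusted p = 0.261) without the doubted libraries.

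At day 11 the Rxra result turned on 1 library. Knockdown values were 13.02 and 12.63 with shRNA 1 and 13.15 and 13.13 with shRNA 2, and the 12.63 was the library with control-like Zbtb9 reads. The difference was 0.18 (SE 0.10, limma adjusted p = 0.194) with all libraries and 0.30 (limma adjusted p = 0.000793) without it. In 1 fit of all 32 libraries, and with the shRNAs as separate groups, it was also called (limma adjusted p = 0.0275 and 0.0336).

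Rxrb (ENSMUSG00000039656, chromosome 17, 34031812 to 34038399, plus strand), RXR beta, is the more even of the pair. Control libraries were at 10.80 to 10.91 at day 0, 11.15 to 11.25 at day 3, 11.18 to 11.26 at day 7 and 11.17 to 11.26 at day 11. After a rise of 0.37 to day 3 (SE 0.04, 1.31-fold, limma adjusted p = 1.62e-10) no further step passed the test, with differences of 0.01 and -0.01 (limma adjusted p = 0.820 and 0.857). Knockdown minus control was -0.08, -0.08, -0.07 and -0.03 at days 0, 3, 7 and 11, with SE 0.05 to 0.06 and limma adjusted p from 0.237 to 0.619. Without the doubted libraries it was -0.05 at day 3 and at day 11 (limma adjusted p = 0.671 and 0.485). Taken alone in the fit with 3 groups, shRNA 1 was below all controls at days 0 and 3, by -0.14 and -0.15 (limma adjusted p = 0.0230 and 0.0204), while shRNA 2 stood at -0.01 on both days (limma adjusted p = 0.920 and 0.870). From day 3 on, the 6 groups formed a chain in which each overlapped the next by mean.

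The remaining RXR, Rxrg (RXR gamma, known from muscle and brain), is not among the 7 but completes the family. It had 0 reads in every library at days 0 and 3, which allows up to 3 reads per library. Control libraries had 0 to 5 reads at day 7 and 1 to 5 at day 11, against 6 to 27 and 13 to 22 in knockdown. It stayed under the filter and was not tested.

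Nr1h3 (ENSMUSG00000002108, chromosome 2, 91184061 to 91202834, minus strand) encodes LXR alpha, the LXR enriched in liver, fat and macrophages. In control it was at 6.90, 6.30, 6.50 and 6.73 at day 0 and at 7.50, 7.53, 7.49 and 7.64 at day 3. At day 7 it was at 8.95, 8.87, 8.97 and 8.76, and at day 11 at 8.03, 7.84, 8.07 and 7.89. It thus peaked at day 7, with no overlap between days. It rose by 0.93 to day 3 (SE 0.10, 2.12-fold, limma adjusted p = 2.59e-10) and by 1.35 to day 7 (2.83-fold, limma adjusted p = 3.50e-14), and fell by 0.93 to day 11 (limma adjusted p = 8.29e-10).

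In knockdown Nr1h3 was at 9.53 and 9.53 with shRNA 1 and at 9.79 and 9.81 with shRNA 2 at day 7. At day 11 it was at 8.48 and 8.17, and at 8.67 and 8.68. All of these lay above the controls of their day. The difference was 0.77 at day 7 (SE 0.08, 1.80-fold, limma adjusted p = 1.69e-06) and 0.54 at day 11 (SE 0.12, 1.53-fold, limma adjusted p = 0.00433). At day 11 it was 0.65 (limma adjusted p = 0.000229) without the doubted library, and with the replicate number as a block it was 0.56 and missed the threshold (limma adjusted p = 0.0650). Macrophage markers also stood higher in knockdown at day 11, as given above, and their part in the result was not tested. At day 0 knockdown was at 6.12 and 6.46, and at 6.20 and 6.09, overlapping control, with a difference of -0.39 (SE 0.14, limma adjusted p = 0.157, unadjusted p = 0.0172 in the fit across all genes). With the shRNAs as separate groups that difference was called (limma adjusted p = 0.0170). At day 3 it was 0.20 (SE 0.12, limma adjusted p = 0.241), or 0.30 (limma adjusted p = 0.142) without the doubted libraries. There the lines lay apart, with shRNA 1 at 7.61, inside the control range, and 7.44, below it, and shRNA 2 at 7.84 and 8.06, above it. Of the exon bases of Nr1h3, 1.35% are shared with another gene on the same strand, Gm13783.

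Nr1h2 (ENSMUSG00000060601, chromosome 7, 44549616 to 44553951, minus strand) encodes LXR beta, the broadly expressed LXR, and took a different course. In control it was at 10.63, 10.56, 10.65 and 10.58 at day 0, dipped to 10.48, 10.40, 10.41 and 10.38 at day 3, and rose to 10.85 to 10.99 at day 7 and 10.94 to 11.08 at day 11. The fall to day 3 was 0.18 in size (a change of -0.18, SE 0.04, 0.875-fold, limma adjusted p = 0.000284), and the rise to day 7 was 0.48 (1.42-fold, limma adjusted p = 4.54e-12). The last step, 0.11 (limma adjusted p = 0.0337), had overlapping days and missed the threshold in 5 of 16 fits without 1 library, with no filter and in 1 fit of all libraries (limma adjusted p = 0.0510 in either). In knockdown the day 3 values were lower still, at 10.16, 10.15, 10.14 and 10.07, all below control, a difference of -0.29 (SE 0.05, 0.811-fold, limma adjusted p = 0.000692), or -0.30 (limma adjusted p = 0.00666) without the doubted libraries. At days 0, 7 and 11 the arms overlapped, with differences of 0.02, 0.07 and 0.08 (limma adjusted p = 0.839, 0.261 and 0.295). The last was 0.11 (limma adjusted p = 0.150) without the doubted library.

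Counted over the 7 receptors, knockdown against control gave no call at day 0, where 0.817% of all genes tested were higher and 2.44% lower. By limma 1 of the 7 had an unadjusted p under 0.05 there, and voom on rebuilt reads called none. At day 3, 1 was higher and 1 lower of 6 tested (14.6% and 12.1% of all genes). At day 7, 4 of 7 were higher and none lower (24.9% and 22.6%), and at day 11 3 of 7 were higher and none lower (16.8% and 16.2%). The median difference of those tested was -0.01, -0.01, 0.30 and 0.22 in order of day, beside -0.01, 0.00, 0.01 and -0.01 for all genes. These comparisons are not independent of the control time course, since they share the control libraries.

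**Figure D2:**
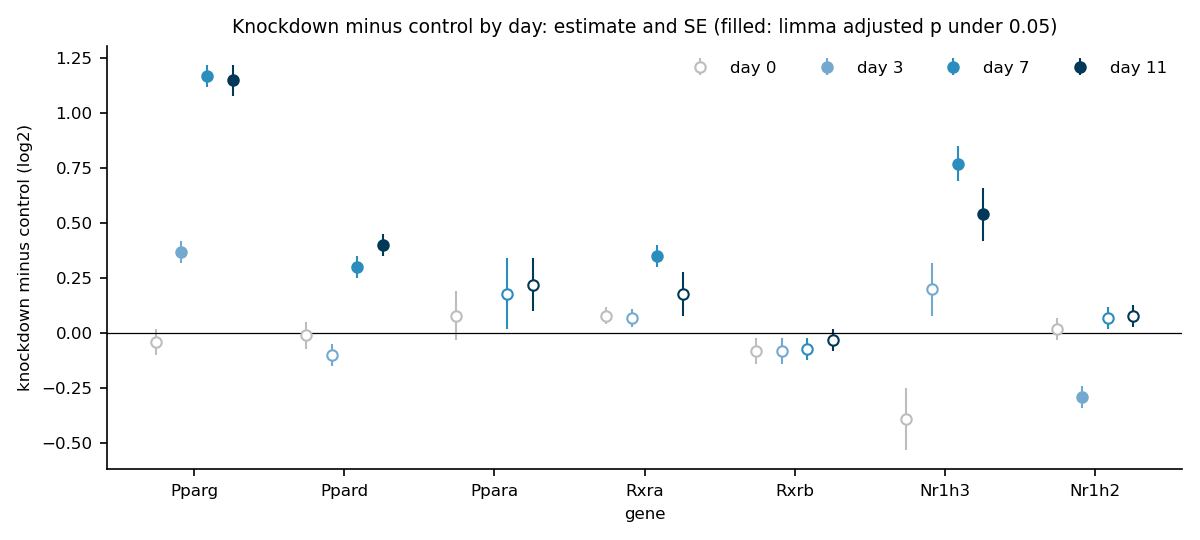
Knockdown minus control on the log2 scale (vertical axis) for each receptor gene at days 0, 3, 7 and 11, with bars for 1 standard error from the limma fit of that day and filled points where the adjusted p was under 0.05. Pparg stands at 0.37, 1.17 and 1.15 at days 3, 7 and 11, and Rxrb between -0.08 and -0.03 throughout.

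Whether the difference itself changed from day to day was tested in a fit of all 32 libraries. From day 0 to day 3 it changed for 3 of the 7 genes, where 6.57% of all genes did. These were Pparg by 0.41 (SE 0.08, limma adjusted p = 0.000804), Nr1h3 by 0.59 (SE 0.18, limma adjusted p = 0.0401) and Nr1h2 by -0.31 (SE 0.06, limma adjusted p = 0.00225). The Nr1h3 call was lost in 10 of 32 fits without 1 library, with no filter (limma adjusted p = 0.0531), with rescaling (0.0535), with the replicate block (0.0567) and with voom (0.126). From day 3 to day 7 the difference rose for 5 of 7 and fell for none, where 23.1% of all genes changed in either direction, 55.9% of them upward. The rise was 0.81 for Pparg (limma adjusted p = 2.55e-09), 0.39 for Ppard (limma adjusted p = 0.000110), 0.36 for Nr1h2 (limma adjusted p = 8.66e-05), 0.57 for Nr1h3 (limma adjusted p = 0.0176) and 0.28 for Rxra (limma adjusted p = 0.0237). The Nr1h3 call was lost without day 3 shRNA 1 replicate 2 (limma adjusted p = 0.0504) and the Rxra call without day 3 shRNA 2 replicate 1 (limma adjusted p = 0.0584). These are the doubted day 3 libraries, and without both the changes were 0.48 for Nr1h3 (limma adjusted p = 0.0838) and 0.26 for Rxra (limma adjusted p = 0.0783). The other calls to and from day 3 held without both. From day 7 to day 11 limma called none of the 7, where 12.7% of all genes changed. None had an unadjusted p under 0.05 either, and voom called none. The Pparg difference moved by -0.02 (SE 0.08) over those days.

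The shRNAs were then set against each other, each with 2 libraries per day. Where they differed, shRNA 2 had the higher receptor values. Of the 7 genes, limma called 1 at day 0 (all genes 35.0%) and 2 of 6 at day 3 (19.6%), then 1 at day 7 (16.4%) and 3 at day 11 (22.0%). Nr1h3 was higher with shRNA 2 by 0.43 at day 3 (limma adjusted p = 0.0171), by 0.27 at day 7 (limma adjusted p = 0.0420) and by 0.35 at day 11 (limma adjusted p = 0.0492). Pparg was higher by 0.17 at day 3 (limma adjusted p = 0.0154) and by 0.21 at day 11 (limma adjusted p = 0.0343). Both day 3 calls were lost without the doubted shRNA 1 replicate 2, with Nr1h3 at 0.34 and Pparg at 0.19, which left 1 library of shRNA 1. Pparg at day 3 was also lost without trend and robust empirical Bayes (limma adjusted p = 0.0958). The day 11 calls, with Rxra at 0.32 (limma adjusted p = 0.0233), were all lost without shRNA 1 replicate 2, with Nr1h3 at 0.20 (limma adjusted p = 0.407), Rxra at 0.12 (limma adjusted p = 0.288) and Pparg at 0.18 (limma adjusted p = 0.167). They were also lost with no filter and without trend and robust empirical Bayes (limma adjusted p from 0.0520 to 0.113). The day 7 call for Nr1h3 was lost under both of these (limma adjusted p = 0.0803 and 0.0741) and in 1 fit of all libraries (0.183). Ppard was higher with shRNA 2 at day 0 by 0.19 (limma adjusted p = 0.00424), with its shRNA 1 values below all controls and its shRNA 2 values above them. Each shRNA was also set against control in the fit with 3 groups. Calls that the pooled comparison did not make were Rxrb with shRNA 1 at days 0 and 3, given above, Nr1h3 with shRNA 2 at day 0 (-0.46, limma adjusted p = 0.0281) and day 3 (0.41, limma adjusted p = 0.00481), and Rxra with shRNA 1 at day 3 (0.10, limma adjusted p = 0.0475) and with shRNA 2 at day 11 (0.34, limma adjusted p = 0.00373). Pparg was higher by 0.28 and 0.45 at day 3, 1.15 and 1.20 at day 7 and 1.05 and 1.26 at day 11, for shRNA 1 and shRNA 2 in turn. Nr1h3 stood at -0.01 and 0.41 at day 3, 0.64 and 0.91 at day 7 and 0.36 and 0.72 at day 11. Rxra stood at 0.37 and 0.33 at day 7 and at 0.02 and 0.34 at day 11.

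Levels between the genes were compared as normalized reads per kilobase of annotated exon. Rxra was the highest receptor in control on every day, at 951 ± 36.2, 3527 ± 84.1, 2365 ± 44.1 and 1292 ± 21.1 (SD, n = 4) for days 0, 3, 7 and 11. Pparg was at 264 ± 12 at day 0, level with Ppard at 260 ± 6.06, and came next after Rxra from day 3 on, at 1046 ± 26.8, 1316 ± 36.5 and 869 ± 54.9. In knockdown Pparg reached 3051 ± 108 at day 7, overlapping Rxra at 3043 ± 128. At day 11 it stood at 1993 ± 173, above Rxra at 1485 ± 239, with no overlap. Nr1h2, Rxrb and Ppard held the middle, from 258 to 658 in the group means of either arm. Nr1h3 was below them on every day, at 33.8 to 203 in control and 23.6 to 364 in knockdown. Ppara was the lowest everywhere, at no more than 5.62 on average. With the longest transcript as the length, the order within the middle changed and Ppard came above Pparg in control at day 0, while Rxra stayed on top in control and Ppara at the bottom. In knockdown at day 7 Pparg was then above Rxra, at 4240 ± 150 against 3389 ± 143 (SD, n = 4), with no overlap.

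**Figure D3:**
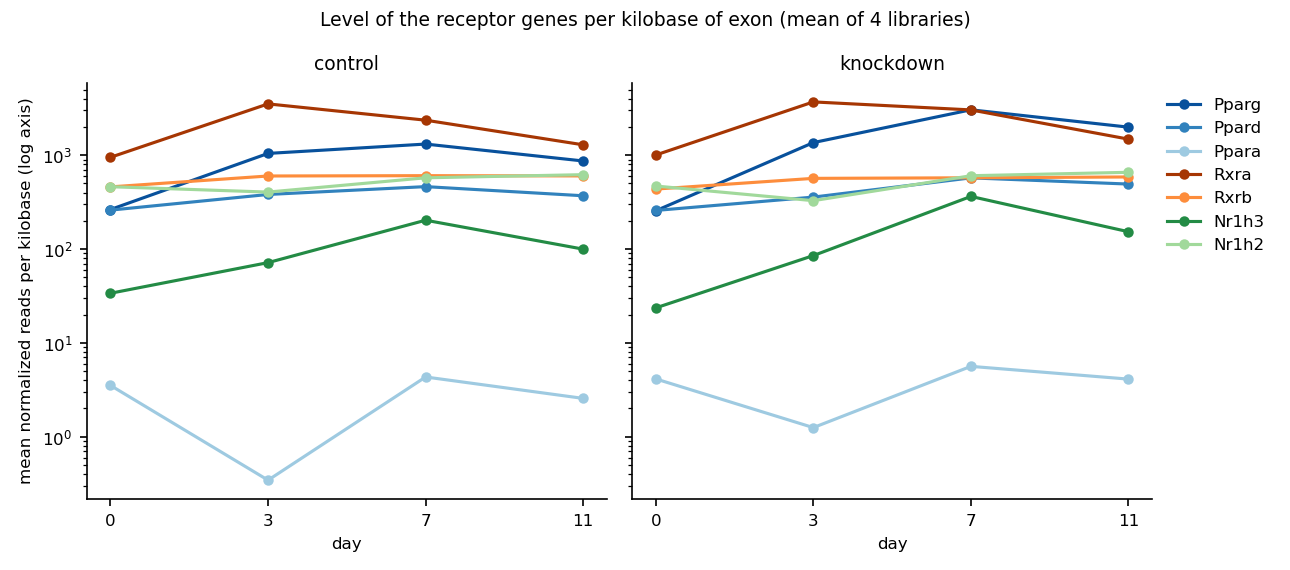
Normalized reads per kilobase of exon (vertical axis, log scale) of the receptor genes by day, in control and in knockdown, with points for the mean of 4 libraries. Pparg (3051) and Rxra (3043) meet in knockdown at day 7, and Ppara lies at the bottom in both arms.

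The make-up of each family followed from these levels. Pparg made up 50.1% ± 0.890 of the reads per kilobase of the 3 PPARs in control at day 0 and 73.2% ± 0.856, 73.8% ± 0.671 and 70.0% ± 0.846 at days 3, 7 and 11 (SD, n = 4). In knockdown it made up 49.5% ± 2.95, 79.2% ± 1.05, 84.0% ± 0.213 and 80.0% ± 0.891 (SD, n = 4), above all controls from day 3 on. At day 0 the lines lay apart, with Pparg at 52.7% and 51.2% with shRNA 1 and at 47.2% and 46.7% with shRNA 2. Ppara never exceeded 1.02% in any library. Rxra held 67.4%, 85.4%, 79.6% and 68.2% of the RXR reads in control for days 0, 3, 7 and 11 in turn, so by the end it was back near its starting share. In knockdown at day 7 it held 83.9% ± 0.699 (SD, n = 4), above all controls. Nr1h3 rose from 6.79% ± 1.42 of the LXR reads in control at day 0 to 26.1% ± 1.34 at day 7, and from 4.80% ± 0.946 to 37.5% ± 2.93 in knockdown (SD, n = 4). Nr1h2 remained the larger LXR in every group, with 62.5% as its lowest group mean. The shares depend on the exon length used: Pparg was at 41.0% in control at day 0 with the longest transcript.

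**Figure D4:**
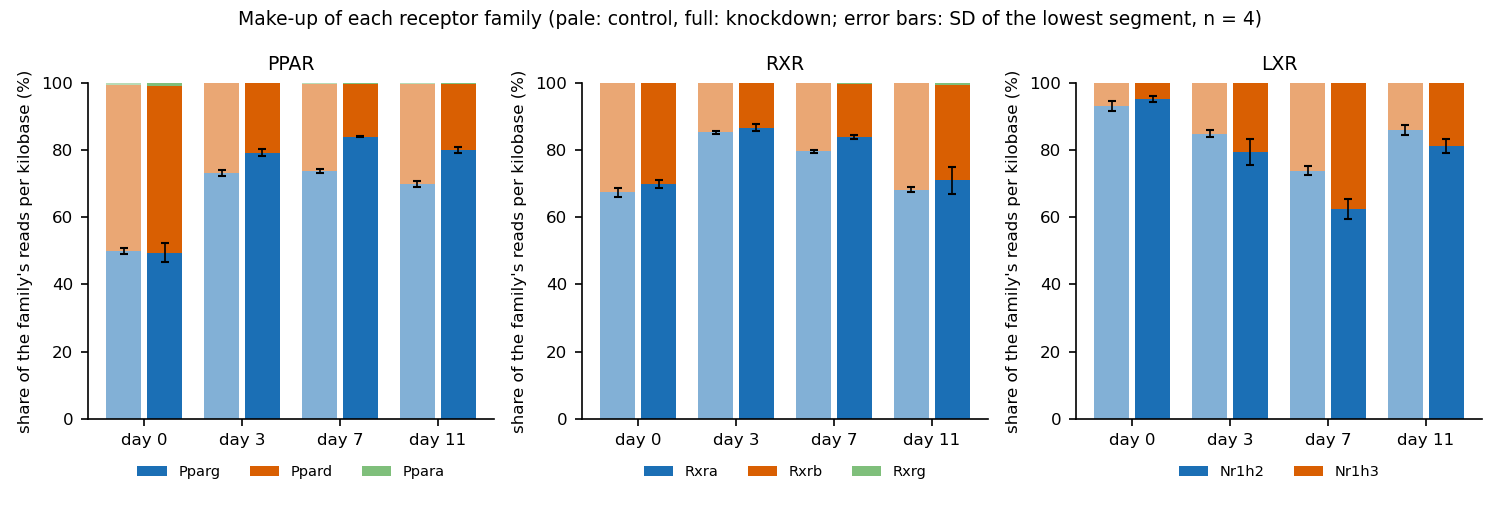
Share of each receptor in the reads per kilobase of its family (vertical axis, percent) by day, for control (pale) and knockdown (full), with the SD of the lowest segment over 4 libraries. Pparg takes 84.0% of the PPAR reads in knockdown at day 7 against 73.8% in control.

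Over all 32 libraries, the pattern of each receptor was compared with 12104 other named genes by Pearson correlation of the log2 values. The libraries share their days and arms, so high values are common and no p is given. Nearest to Pparg were Lipe (r = 0.991), which encodes hormone-sensitive lipase, Pgrmc2 (0.985) and Foxo1 (0.984). Nearest to Nr1h3 were Acadvl (0.976), an enzyme of very long chain fatty acid oxidation, Mfsd12 (0.974) and the adipokine gene Retn (0.971). Ppard was nearest to Mtus1 (0.990), Fcor (0.978) and Spidr (0.972), and Rxra to the collagen gene Col4a1 (0.987), Tob2 (0.986) and Adam15 (0.986). Nr1h2 was nearest to Chpf2 (0.979), Apeh (0.974) and Rhobtb1 (0.971), Rxrb to Zfp862-ps (0.947), B4galt1 (0.941) and Enpp2 (0.917), and Ppara to Rapgefl1 (0.874), Ppm1k (0.845) and Cdkn1b (0.837). Among the receptors themselves, Pparg went with Ppard (0.95) and Nr1h3 (0.92) more closely than with Rxra (0.71), and Rxra and Nr1h2 were at -0.36.

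The genes that PPAR gamma is known to switch on in fat were counted from a list of 24, of which 5 were also among the adipocyte markers. Beside each list stand the shares of all genes called in knockdown: 14.6% higher and 12.1% lower at day 3, 24.9% and 22.6% at day 7, and 16.8% and 16.2% at day 11. Without the doubted day 11 library these last were 16.2% and 16.1%. In knockdown 13 of 18 tested were higher and 1 lower at day 3, with a median of 0.72, and 13 and 1 without the doubted day 3 libraries (median 0.71). At day 7 20 of 21 were higher and 1 lower (median 1.35), and at day 11 18 of 21 were higher and none lower (median 1.07), or 17 of 20 and none without the doubted library. At day 0 1 was higher and 1 lower of 18 (median -0.01), where 0.817% and 2.44% of all genes were. Some of the 18 had almost no reads then, with control means of 0.210 normalized reads for Plin1, 0.207 for Adipoq and 4.75 for Cd36. For such genes day 0 could hardly show a difference. The gene that was lower at days 0, 3 and 7 was Slc27a1, a fatty acid transporter. Fabp4, the fatty acid binding protein of fat cells, was higher by 0.90, 1.66 and 1.65 at days 3, 7 and 11, Plin1, the lipid droplet coat protein, by 1.05, 2.07 and 2.02, and the adipokine gene Adipoq by 1.37, 1.93 and 2.06. Cd36, a fatty acid receptor, was higher by 1.32 and 0.80 at days 3 and 7 and stood at 0.47 at day 11 (limma adjusted p = 0.231). Its mean log2 value was 11.46 with shRNA 1, 12.23 with shRNA 2 and 11.04 in control at day 7, and 10.99, 11.96 and 11.00 at day 11. At day 11 only the shRNA 2 mean thus lay above control. Aqp7, the glycerol channel, was higher by 1.32 and 1.04 at days 7 and 11, and Pck1, an enzyme of glycerol formation, by 0.36 and 1.07. In control, 14 of 20 of the list rose and 2 fell to day 3 (median 1.09), where 38.3% of all genes rose and 38.2% fell. From day 3 to day 7 16 rose and 3 fell (median 0.69), and from day 7 to day 11 6 rose and 10 fell (median -0.17), where 37.6% and 36.6%, and then 28.9% and 26.1%, of all genes did. All 20 tested were higher at day 11 than at day 0 (median 1.79), where 33.0% of all genes were.

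Genes of fatty acid oxidation known as PPAR alpha and delta targets were called in both directions. Of the list, 4 were higher and 4 lower of 17 tested at day 3 (median -0.01), 12 and 3 of 18 at day 7 (median 0.38) and 8 and 3 of 18 at day 11 (median 0.20), or 8 and 4 without the doubted library. Without the doubted libraries of day 3, 3 were higher and 4 lower that day. All genes were at 14.6% higher and 12.1% lower at day 3, 24.9% and 22.6% at day 7 and 16.8% and 16.2% at day 11, so the counts lower at day 7 and at day 11 lay near or below the share of all genes. At day 0 1 of 17 was lower and none higher (median -0.06), where 2.44% and 0.817% of all genes were. Angptl4, a secreted inhibitor of lipoprotein lipase, was higher by 0.54 at day 7 and stood at 0.50 at day 11 (limma adjusted p = 0.0606). Cpt1a, the carnitine transferase at the gate of mitochondrial oxidation, was lower, with differences of -0.37, -1.03 and -0.90 at days 3, 7 and 11. Pdk4, a kinase that spares glucose, was lower at day 7 (-0.32), and the droplet protein Plin2 was higher at day 3 (0.25) and lower at days 7 and 11 (-0.14 and -0.26).

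Of the LXR target genes, 1 was higher and 1 lower of 12 tested at day 3 (median 0.11), where 14.6% and 12.1% of all genes were, and 1 and none without the doubted libraries. At day 7, 7 were higher and 2 lower of 12 (median 0.41), and at day 11 8 and 2 of 13 (median 0.36), with and without the doubted library. All genes were at 24.9% and 22.6% at day 7 and at 16.8% and 16.2% at day 11. At day 0 1 of 13 was lower (median -0.09), where 2.44% of all genes were. The lower ones at days 7 and 11 were Arl4c and Pltp, a phospholipid transfer protein. Of the cholesterol exporters, Abcg1 was higher by 0.50, 1.27 and 1.09 at days 3, 7 and 11, and Abca1 by 0.73 and 0.42 at days 7 and 11. The desaturase gene Scd1 was higher by 1.92 and 2.28, and the fatty acid synthase gene Fasn by 0.92 and 0.38. Srebf1, which drives fatty acid synthesis, was higher only at day 11 (0.47) among the days tested, and Mylip, which degrades the LDL receptor, stood at -0.05 and 0.05 at days 7 and 11 (limma adjusted p = 0.580 and 0.673). In control 8 of 13 rose and 4 fell to day 3 (38.3% and 38.2% of all genes), and 4 rose and 7 fell from day 3 to day 7 (37.6% and 36.6%). From day 7 to day 11, 3 rose and 8 fell (median -0.23, all genes 28.9% and 26.1%). Against day 0, 5 were higher and 6 lower at day 11 (median -0.05, all genes 33.0% and 31.6%). Of the enzymes that make or clear sterol ligands, 4 of 8 were tested, with 1 higher at day 3, 1 higher and 1 lower at day 7 and 2 higher and 1 lower at day 11 (medians 0.10, 0.16 and 0.12). Without the doubted libraries 1 was higher and 1 lower at day 3, and day 11 was the same. Ch25h had at most 12 reads and Cyp27a1 at most 11 in any library, and both were under the filter.

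Of 7 other receptors tested that pair with RXR, none was higher and 3 lower at day 3, 1 higher and 3 lower at day 7, and 2 higher and none lower at day 11 (medians -0.15, -0.06 and 0.11). Among all genes 14.6% were higher and 12.1% lower at day 3, 24.9% and 22.6% at day 7 and 16.8% and 16.2% at day 11, and with 7 genes little can be read from the counts. The day 11 counts were the same without the doubted library, and at day 3 none was higher and 1 lower without those of that day. At day 0 1 was lower, where 2.44% of all genes were. Rara, a retinoic acid receptor, was higher by 0.21 at day 7 and 0.88 at day 11. Thra, a thyroid hormone receptor, was lower at days 3 and 7 (-0.15 and -0.42), and Vdr, the vitamin D receptor, stood between -0.17 and 0.04 with no call.

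Among 14 coactivators, 4 were higher at day 3, 3 higher and 7 lower at day 7 and 2 higher and 2 lower at day 11 (medians 0.10, -0.12 and -0.03). Without the doubted libraries 3 were higher at day 3, and 2 were higher and 3 lower at day 11. The related Ppargc1b and Ppargc1a went apart: Ppargc1b was higher by 0.90, 1.65 and 1.65, and Ppargc1a was higher at day 3 by 0.48, lower at day 7 (-0.52) and at -0.78 at day 11 (limma adjusted p = 0.249). The mean log2 value of Ppargc1a was 7.30 with shRNA 1, 7.91 with shRNA 2 and 8.13 in control at day 7, and 7.23, 8.84 and 8.82 at day 11, so at day 11 only shRNA 1 of the pair was low. Med1, the mediator subunit that binds PPAR gamma, stood at 0.09, -0.03 and 0.02 at days 3, 7 and 11 with no call. Of 10 genes listed as corepressors, 2 were higher and 2 lower at day 3, 3 and 2 at day 7 and 2 and 1 at day 11 (medians -0.00, 0.01 and 0.04). Without the doubted libraries 2 were higher and 1 lower on both day 3 and day 11. For both lists the shares of all genes were 14.6% higher and 12.1% lower, 24.9% and 22.6%, and 16.8% and 16.2% on these days, and the corepressor counts lay near them. Nrip1 was higher by 0.27, 0.60 and 0.80, while Ncor1, a scaffold of the repressor complexes, stood between -0.10 and 0.11 with no call. Another of those higher, Ncoa4, is better known as a coactivator and as a ferritin receptor.

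Of 20 regulators known to act upstream of Pparg, 4 were lower and none higher at day 0, 4 higher and 2 lower at day 3, 7 and 4 at day 7, and 10 and 3 at day 11 (medians -0.10, -0.05, 0.04 and 0.18). All genes were at 0.817% higher and 2.44% lower at day 0, then 14.6% and 12.1%, 24.9% and 22.6%, and 16.8% and 16.2%. Without the doubted libraries 4 were higher and 1 lower at day 3, and 12 were higher and 3 lower at day 11. Cebpa, which forms a loop with Pparg in fat cells, was higher by 0.88, 1.99 and 1.63. Klf15 stood at 0.30 at day 3 (limma adjusted p = 0.0577) and was higher by 2.05 and 2.04 at days 7 and 11. Ebf1 was higher by 0.28, 0.39 and 0.33. Cebpb, which acts early after induction, stood at -0.04 at day 3 (limma adjusted p = 0.727) and was called only at day 11 (0.39) of the 4 days. The commitment factor Zfp423 was not called on any day, with differences from -0.05 to 0.27.

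**Figure D5:**
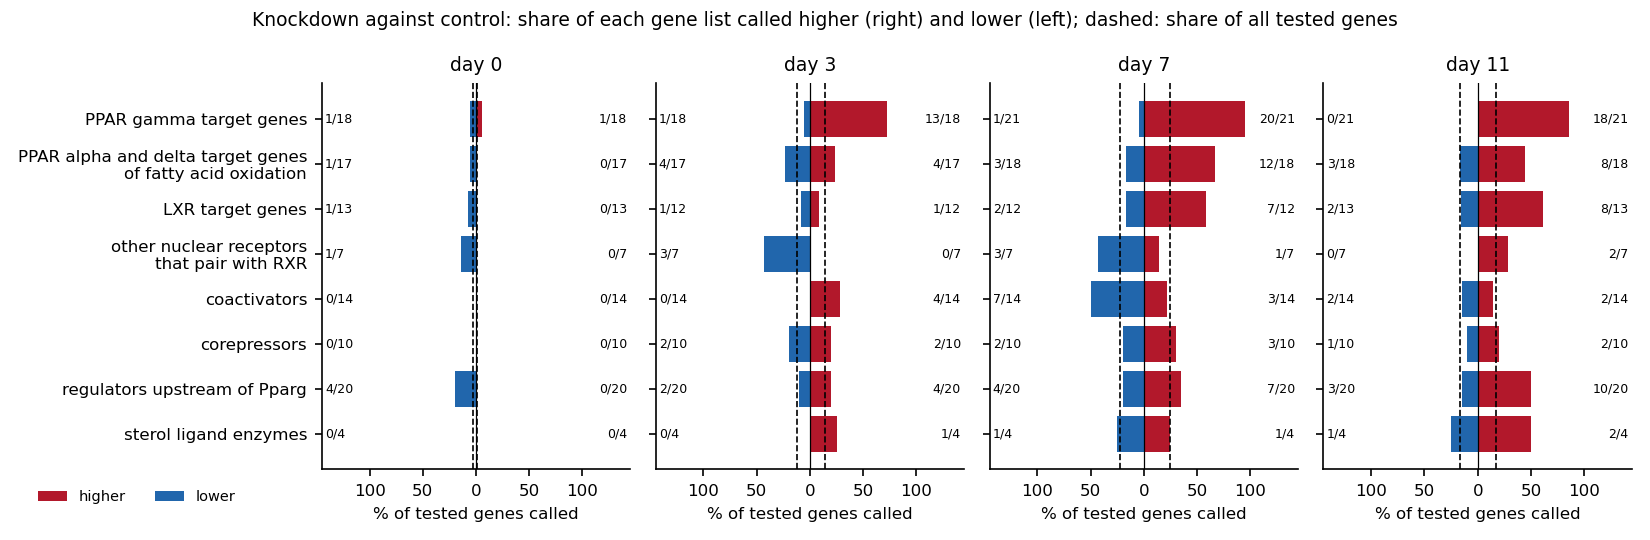
Share of the tested genes of each list called higher (right) or lower (left) in knockdown by day (horizontal axis, percent), with counts at the edges and dashed lines at the share of all genes tested. At day 7, 20 of 21 PPAR gamma targets lie to the right and 7 of 14 coactivators to the left.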

How the data were processed

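RNA of 3T3-L1 cells was sequenced from 32 libraries made with an Illumina TruSeq RNA kit, per the labels' protocols. TopHat2 2.1.0, Bowtie2 2.2.6, SAMtools 1.3.1 and HTSeq 0.6.1 are named in the submitters' processing notes. The genome build, annotation, use of strand and transform are not given in the sources used here. The authors deposited log2 values, from -1.56 to 17.99, in the form of a regularized log, which understates differences of genes with few reads.

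Groups came from the sample titles. limma 3.58.1 in R 4.3.3 was fitted to the log2 values as deposited, with trend and robust empirical Bayes. A gene was tested where its unlogged value reached 10 in 4 or more libraries of the fit. As these values are drawn towards each gene's mean, the filter is not a floor on reads. Rxrg stayed untested with 27 reads in shRNA 1 replicate 1 at day 7. Plin1 was tested at day 0 with a control mean of 0.210 normalized reads. Benjamini-Hochberg adjustment ran over all genes tested, and a gene was called at an adjusted p under 0.05. Knockdown and control were compared per day in 8 libraries, the control course in 16, and changes of the difference in 32. The fits assume that libraries of all groups in a fit vary alike. For a check, log2 values were drawn at random around the control means of a day, with the control spread in both arms. Known changes were given only to genes whose control mean lay above the filter value. From 90.0% (day 3) to 93.5% (day 0) of changed genes were recovered, with from 2.16% (day 11) to 7.58% (day 7) of calls false. The check held no difference between the shRNAs and no counting error of reads, so its rates apply to that setting only. These fits ran on 13216, 13155, 13278 and 13261 genes for days 0, 3, 7 and 11.

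Whole reads were rebuilt by inverting the transform: 95.9% of values, and 224 of 224 of the receptors, came within 0.1 of a whole read, where chance gives 20.0%. They give depth, folds and levels per kilobase, and the floor of 3 reads; intervals of reads without molecular identifiers cover counting error only. Positions and exon lengths are from GENCODE M21 (GRCm38), where 20521 of 20560 gene IDs matched, and promoters from RefSeq (GRCm38.p6), where all 7 receptors matched.

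The 7 genes, the gene lists and the markers were chosen with earlier results of these data known. Named are the 7 receptors, Zbtb9, a set of genes chosen from each list whatever their values, and the 3 genes most like each receptor (symbols of predicted genes, such as those ending in Rik, left out); Slc27a1, Arl4c, Pltp, Ncoa4, Cfd, Cd68 and Lyz2 were named after their values were seen. Some genes of that set are not reported here. Alternatives were other filters, a pseudocount of 1, rescaling to equal totals, limma without trend and robust, voom on rebuilt reads, the shRNAs as separate groups, 1 fit of all libraries, a replicate block and leaving out each library.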

Additional observations from a re-analysis of the deposited data

Results flagged for a closer look

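In 56 groups of 4 libraries checked for a value far from the others, 3 stood out, and chance flags about 1 in 20 groups. They were Rxra in control replicate 2 at day 0 (12.45), Rxra in control replicate 2 at day 3 (14.26) and Nr1h2 in shRNA 2 replicate 2 at day 7 (10.94).

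The knockdown lines differed from each other, in tests of shRNA 2 minus shRNA 1, for Ppard at day 0 (0.19), Pparg at day 3 (0.17) and day 11 (0.21), Nr1h3 at day 3 (0.43), day 7 (0.27) and day 11 (0.35) and Rxra at day 11 (0.32). Each of these but the Ppard difference was lost in some fits that left out 1 library.

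The knockdown difference changed between days, by tests of the change itself, for Pparg (0.41), Nr1h3 (0.59) and Nr1h2 (-0.31) from day 0 to day 3. From day 3 to day 7 it changed for Pparg (0.81), Nr1h3 (0.57), Ppard (0.39), Rxra (0.28) and Nr1h2 (0.36).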

How the results depend on the processing

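The day 11 counts of the gene lists without shRNA 1 replicate 2, and all fits without both day 3 libraries with Zbtb9 in the control range, were chosen after seeing the data. The latter gave 2267 genes (of 3506) for knockdown at day 3 and 535 (of 892) for the change from day 0 to day 3, with fewer samples in the fit. Of 103 results on the receptors, 86 kept their call under every alternative run, and none that was called reversed. The replicate numbers were not taken to pair the samples, as the labels do not say that they do. Whether libraries of the same number shared a batch cannot be settled here. Of 24 same-numbered pairs of the same day, 3 had a correlation of deviations over 0.1 (median 0.0422, lowest -0.00519), against 1 of 56 differently numbered pairs (median -0.0114, lowest -0.215). The 2 libraries of an shRNA deviate in mirror image, so between the shRNAs these 2 kinds of pair are not independent. With the replicate block, the genes called for knockdown against control went from 430 to 0 at day 0 (1067 at an unadjusted p under 0.05), 3506 to 845 at day 3, 6328 to 4112 at day 7 and 4382 to 1652 at day 11, and Nr1h3 at day 11 was no longer called (0.56, limma adjusted p = 0.0650). The block also ended the Nr1h3 change from day 0 to day 3 (limma adjusted p = 0.0567) and added Rxrb between the shRNAs at day 0 (limma adjusted p = 0.0429). With the shRNAs as separate groups the counts were 3340 at day 0 and 5311 at day 3, and those of the changed difference went from 892 to 2484 (day 0 to 3), 3137 to 4961 (day 3 to 7) and 1725 to 3540 (day 7 to 11). Without trend and robust empirical Bayes they were 261 for knockdown at day 0, and 1454 (of 2572) and 1035 (of 2183) between the shRNAs at days 3 and 7, and with no filter 1710 at day 3.

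Leaving out 1 library gave 111 to 562 genes for knockdown at day 0 (250 without shRNA 1 replicate 2, and 129, 115, 111 and 157 without control replicates 1 to 4). Between the shRNAs it gave 1633 to 2592 at day 3 (1633 and 1670 without shRNA 1 replicates 1 and 2, 1700 without shRNA 2 replicate 2), 1003 to 2385 at day 7 (1383 and 1003 without shRNA 1 replicates 1 and 2, 1325 without shRNA 2 replicate 1) and, of 2916, 1479 to 2928 at day 11 (1479 without shRNA 1 replicate 2, 1693 without shRNA 2 replicate 1). Among the receptors, Pparg between the shRNAs was lost in 3 of 8 such fits at day 3 and at day 11, Nr1h3 in 2, 4 and 7 of 8 at days 3, 7 and 11, and Rxra in 3 of 8 at day 11. Rxrb was called for knockdown at day 3 without shRNA 2 replicate 2 (-0.14, limma adjusted p = 0.0338) and between the shRNAs without shRNA 1 replicate 2 at day 0 (0.21) or shRNA 2 replicate 1 at day 3 (0.24). Ppara from day 7 to day 11 was called without day 7 control replicate 4 (-0.33, limma adjusted p = 0.0400). The changes from day 3 to day 7 were lost for Rxra without day 3 shRNA 2 replicate 1 (0.25, limma adjusted p = 0.0584) and for Nr1h3 without day 3 shRNA 1 replicate 2 (0.47, limma adjusted p = 0.0504). The Nr1h3 change from day 0 to day 3 was also lost with voom (0.75, limma adjusted p = 0.126), rescaling and no filter. Between the shRNAs, without trend and robust empirical Bayes Pparg at day 3 was lost (limma adjusted p = 0.0958). The causes were not tested.

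With equal totals, the upward part of the calls went from 25.1% to 43.3% for knockdown at day 0, 45.8% to 61.9% between the shRNAs at day 7, and 56.2% to 42.4% and 55.9% to 45.3% for the changed difference from day 0 to 3 and from day 3 to 7. Depth limits Ppara and Rxrg, with at most 27 reads in a library.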
